A study of Mus musculus with 42 samples.

Results

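The 10 genes described here encode cytosolic sulfotransferases of mouse liver: Sult1a1, Sult1b1, Sult1c2, Sult1d1, Sult2a1, Sult2a2, Sult2a3, Sult3a1, Sult3a2 and Sult5a1. They were chosen by name, with results of these same libraries and the differences between the groups known, out of 54446 genes in the count table and out of 27 genes whose symbol starts with Sult, of which 21 are protein coding and 6 are pseudogenes. All group differences of the 10 members are therefore given as a description, without a test. All 10 passed the filter on low counts, as did 8 of the other 17 Sult genes, on which the tests were run.

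Liver RNA was sequenced from 42 female APOE*3-Leiden mice, which carry the human APOE*3-Leiden transgene in every group and were 8 to 14 weeks old at the start. Of these mice 10 were kept on chow as a reference, 16 received a Western-type diet (WTD) and 16 received WTD with atorvastatin, and livers were taken at week 32. The WTD held 1% cholesterol, 15% cocoa butter and 40.5% sucrose. Week 0 followed a run-in of 3 weeks on this diet. Atorvastatin was given in the diet at 3.0 mg/kg/day, raised to 4.5 mg/kg/day at week 5, and 0.05% cholate, a bile acid, was part of the diet of both WTD groups for the last 10 weeks, so that its effect cannot be told apart from that of the diet. The human transgene is not among the mouse genes counted. The chow mice carry the labels AZ and the WTD-fed mice the labels Gen, so that whatever these letters stand for cannot be told apart from the diet. Per-mouse totals ranged from 15661381 to 36224054 gene counts, and 3 counts in a library corresponded to 0.083 to 0.19 CPM (counts-per-million), which is taken as the floor below which a level cannot be told from 0. Albumin (Alb) had a median of 91340 CPM on chow, 48530 CPM on WTD and 83830 CPM with atorvastatin. In 9 libraries, 3 on chow, 5 on WTD and 1 with atorvastatin, over 20% of the weakly expressed genes (1 to 2 CPM in their group) had no count.

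Sulfotransferases move a sulfonate group from the donor 3'-phosphoadenosine 5'-phosphosulfate (PAPS) onto hydroxyl or amino groups, which makes hormones, bile acids and drugs more soluble in water and easier to export. Members of the Sult1 family act mostly on phenols, among them thyroid hormone, catechols and, for Sult1e1, estrogens, while the Sult2 family acts on hydroxysteroids such as dehydroepiandrosterone and, for the Sult2a enzymes, on bile acids. In mouse liver, Sult2a and Sult3a1 transcripts are known to be more abundant in females than in males, and only females were studied here. The genes lie in clusters. On GRCm38, Sult2a2 (chr7:13733505-13779636, plus strand), Sult2a1 (chr7:13796246-13837409, minus strand) and Sult2a3 (chr7:14067446-14123044, minus strand) share 1 cluster with Sult2a4, Sult2a5, Sult2a6, Sult2a7, Sult2a8 and 4 pseudogenes. Sult1b1 (chr5:87513339-87538195) and Sult1d1 (chr5:87554645-87569027) lie beside Sult1e1 on the minus strand, and Sult3a2 (chr10:33766424-33786704, minus strand) beside Sult3a1 (chr10:33857721-33879532, plus strand). Sult1a1 (chr7:126672865-126676432), Sult5a1 (chr8:123140192-123158315) and Sult1c2 (chr17:53829637-53846339), all on the minus strand, are each the only tested Sult gene at their locus.

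The transcripts of Sult2a1 to Sult2a5 are close to identical, and this bears on how reads could be counted between them. The longest annotated mRNA of Sult2a1 matched that of Sult2a2 in 97.6% of 739 aligned bases, that of Sult2a5 in 94.6% and that of Sult2a3 in 93.4%, while Sult2a7 matched it in 81.6% and Sult2a8 in 71.1%. Sult3a1 and Sult3a2 matched in 89.8%. A coding stretch of 60 bases shows this for the 3 members, and it is the stretch within 1 exon in which they differed most, at the 9 positions in capitals. It is read 5' to 3' on the strand of each gene, at chr7:13836002-13836061 for Sult2a1, chr7:13734855-13734914 for Sult2a2 and chr7:14121626-14121685 for Sult2a3, all GRCm38.
Sult2a1: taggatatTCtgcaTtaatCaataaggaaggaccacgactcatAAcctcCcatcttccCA
Sult2a2: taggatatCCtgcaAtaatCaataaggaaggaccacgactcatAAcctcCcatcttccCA
Sult2a3: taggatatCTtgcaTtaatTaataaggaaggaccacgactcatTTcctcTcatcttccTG
Of all stretches of 150 bases in the Sult2a2 mRNA, the length of a read, 20.6% also occur without a difference in Sult2a1 or Sult2a5, as compared to 6.31% of those of Sult2a1, 7.47% of those of Sult2a5 and 0 of those of Sult2a3, Sult3a1 and Sult3a2. Reads that aligned to several places (4.07 to 5.36% of each table column) were not assigned to a gene, so levels of Sult2a1, Sult2a2 and Sult2a5 are uncertain in this respect.

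Upstream sequence was compared for the genes of the Sult2a cluster, where the members were lower on WTD, and for Sult1e1, which was higher. RefSeq windows on GRCm38.p6 were at hand for 8 of the 10 members, not for Sult2a1 and Sult2a2, so Sult2a3 and the closely related Sult2a5 are shown, each as the 250 bases before the annotated start, 5' to 3' in the direction of the gene. Capitals mark matches to 5 motifs, searched on either strand. AGGTCA is the core that nuclear receptors bind and AGTTCA a variant of it. The motif TCATGA stands at the centre where 2 such cores face each other without a spacer. TATAAA is the box near many start sites, and TTCNNNGAA is the site of STAT factors.
Sult2a5 (chr7:13623717-13623966, plus strand): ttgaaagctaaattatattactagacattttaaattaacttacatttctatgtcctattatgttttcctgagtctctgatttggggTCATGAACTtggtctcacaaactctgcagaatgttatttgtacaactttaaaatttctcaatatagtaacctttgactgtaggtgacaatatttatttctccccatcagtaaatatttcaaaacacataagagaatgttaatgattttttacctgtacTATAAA
Sult2a3 (chr7:14123049-14123298, minus strand): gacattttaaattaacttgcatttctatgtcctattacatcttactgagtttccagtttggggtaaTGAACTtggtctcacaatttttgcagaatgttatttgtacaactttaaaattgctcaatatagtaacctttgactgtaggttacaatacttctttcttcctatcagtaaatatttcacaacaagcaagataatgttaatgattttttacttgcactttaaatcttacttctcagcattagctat
Sult1e1 (chr5:87591612-87591861, minus strand): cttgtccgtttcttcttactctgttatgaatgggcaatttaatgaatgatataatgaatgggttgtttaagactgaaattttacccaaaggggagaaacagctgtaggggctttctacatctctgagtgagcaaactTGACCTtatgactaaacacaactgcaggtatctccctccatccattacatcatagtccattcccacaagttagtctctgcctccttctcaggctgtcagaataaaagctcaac
The windows of Sult2a5 and Sult2a3 were identical in 88.1% of 227 aligned bases. In Sult2a5, TCATGA began at base -164 from the start and overlapped the reverse strand match to AGTTCA at base -161. In Sult2a3 the same place, at base -187, differed by C2A, counted from 1 at the first base of TCATGA with the base of Sult2a5 given first, so that AGTTCA alone was matched there. The TATAAA match of Sult2a5, at base -6 and directly before the annotated start, differed by A2T from the aligned place in Sult2a3, at base -29. Sult1e1 held a single match, AGGTCA on the reverse strand at base -113. Of all 32851 windows of 250 bases, 14.0% held AGGTCA, 11.8% AGTTCA, 4.61% TCATGA, 12.4% TATAAA and 7.02% TTCNNNGAA. Among the 8 members with a window, 3 held AGTTCA and 0 held TCATGA, and among the 9 other Sult genes with a window 4 and 3 did. These matches describe letters and are no evidence of binding.

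In chow-fed mice, Sult2a2, Sult1a1 and Sult2a1 were the most abundant members once scaled by exon length. On this scale, median levels were 423 CPM per kb for Sult2a2, 307 for Sult1a1, 246 for Sult2a1, 104 for Sult3a1 and 63.2 for Sult1d1, followed by 14.4 for Sult1b1, 12.3 for Sult5a1, 9.17 for Sult3a2, 8.13 for Sult2a3 and 4.72 for Sult1c2. Only between Sult1d1 and Sult1b1 did neighbours in this order have ranges over the 10 mice that did not overlap. In WTD-fed mice the order changed to Sult1a1 with 173, Sult2a2 with 81.0, Sult1d1 with 48.4 and Sult2a1 with 12.4 CPM per kb, and Sult5a1, Sult3a1 and Sult3a2 came last with 0.288, 0.119 and 0. With atorvastatin, Sult2a2 (267), Sult1a1 (240) and Sult2a1 (139) were again the first, Sult2a3 (15.6) stood above Sult1b1 (6.84), and Sult3a1 and Sult5a1 (0.92 each) and Sult3a2 (0.0581) were still last. Ranges of all neighbours overlapped in both WTD-fed groups. In a bulk sample, fewer cells of a type and less RNA per cell cannot be told apart.

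**Figure D1:**
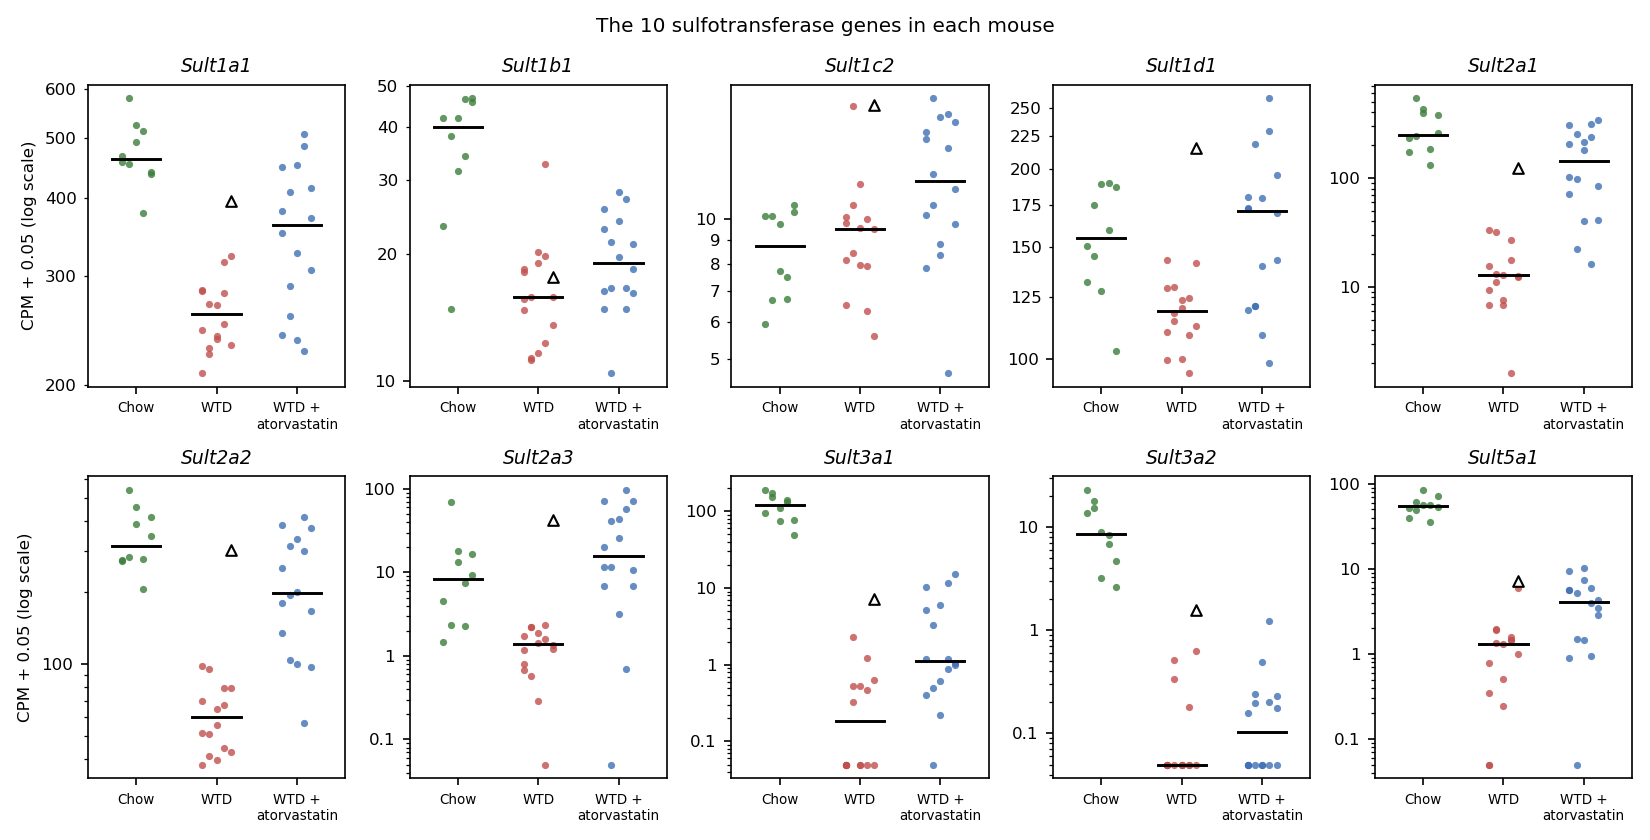
Each point is 1 mouse and each bar the group median of TMM-scaled CPM plus 0.05 on a log axis, for the 10 genes in chow (10 mice), WTD (16) and WTD with atorvastatin (16). The open triangle is the WTD mouse Gen20, which is the highest WTD mouse in 9 of the 10 genes. Sult2a1, Sult3a1, Sult3a2 and Sult5a1 show no overlap between the chow and WTD mice.

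A single WTD mouse stood apart. The mouse labelled Gen20 had the highest level of all 16 WTD mice in 9 of the 10 members, the exception being Sult1b1, and its library was among those that missed weakly expressed genes (21.9% without a count, as compared to 0 to 48.5% in the other 15). Its Sult2a1 level was 123 CPM, as compared to 1.56 to 33.2 CPM in the others, its Sult2a3 level 41.9 CPM as compared to 0 to 2.28, and its Sult3a1 level 7.14 CPM as compared to 0 to 2.23. Its summed hepatocyte (116000 CPM), sinusoidal endothelial (277 CPM) and intestine, kidney and pancreas markers (151 CPM) were above those of every other WTD mouse. Its macrophage (2307 CPM), stellate cell (1050 CPM) and cholangiocyte markers (182 CPM) were below those of every other WTD mouse. The macrophage sum was above the chow range (380 to 567 CPM) and within that with atorvastatin (1689 to 3005 CPM). Its Sult1e1 level (22.0 CPM) was above that of every chow mouse (0 to 6.08 CPM). Whether this library carries the right label or holds RNA of more than 1 mouse cannot be settled from these files, and every WTD range, fold change and correlation that includes it has this limit. Fold changes of the Sult2a, Sult3a and Sult5a1 genes and of Sult1a1 and Sult1d1 are therefore also given without it. Since Gen20 was the highest WTD mouse in these members, leaving it out lowers their WTD level by construction.

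Members of the Sult2a subfamily, which sulfonate hydroxysteroids and bile acids, were low on WTD and near the chow level in part of the atorvastatin-treated mice. Sult2a1 had 131 to 541 CPM on chow (median 251), 1.56 to 123 CPM on WTD (median 12.7) and 16.3 to 344 CPM with atorvastatin (median 142). Every WTD mouse was below every chow mouse, and 8 of the 16 atorvastatin-treated mice were within the chow range. The log2 fold change of Sult2a1 was -3.79 ± 0.49 (SE) for WTD as compared to chow, 2.89 ± 0.45 for atorvastatin as compared to WTD and -0.90 ± 0.47 for atorvastatin as compared to chow. Without Gen20 the first 2 were -4.34 and 3.44. These comparisons share mice, so their values stand side by side and do not support each other.

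Sult2a2, the first on chow per kb but below Sult1a1 in CPM because its annotated exons span only 741 bases, had 207 to 540 CPM on chow (median 313), 37.8 to 302 CPM on WTD (median 60.0) and 56.3 to 413 CPM with atorvastatin (median 198). Gen20 was the only WTD mouse that reached the chow range, and 7 of 16 atorvastatin-treated mice reached it. Its log2 fold changes were -2.18 ± 0.30, 1.56 ± 0.27 and -0.61 ± 0.30 in the same order, and without Gen20 the first 2 became -2.50 ± 0.25 and 1.88 ± 0.23. Sult2a3 was less abundant and more variable, with 1.41 to 70.0 CPM on chow (median 8.27), 0 to 41.9 CPM on WTD (median 1.33) and 0 to 97.5 CPM with atorvastatin (median 15.9). Its ranges overlapped in all comparisons, and 11 of 16 atorvastatin-treated mice were above the chow median, while 1 WTD mouse, Gen20, was. The log2 fold changes of Sult2a3 were -1.92 ± 0.78, 2.97 ± 0.74 and 1.05 ± 0.81, and without Gen20 the first 2 became -3.50 ± 0.69 and 4.55 ± 0.68.

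Sult3a1, which sulfonates amines, and its neighbour Sult3a2 were near 0 in both WTD-fed groups. Sult3a1 had 49.4 to 191 CPM on chow (median 121), 0 to 7.14 CPM on WTD (median 0.137) and 0 to 15.4 CPM with atorvastatin (median 1.06). It had no count in 8 of 16 WTD mice and in 1 of 16 atorvastatin-treated mice, and the highest atorvastatin-treated mouse was still below the lowest chow mouse. Its log2 fold changes were -7.19 ± 0.74 for WTD and -5.09 ± 0.66 for atorvastatin as compared to chow, and 2.09 ± 0.67 for atorvastatin as compared to WTD. Without Gen20 its value on WTD was -8.25 ± 0.72 and that for atorvastatin as compared to WTD 3.15 ± 0.68. Sult3a2 had 2.59 to 22.9 CPM on chow (median 8.53), 0 to 1.52 CPM on WTD (median 0, with 11 mice at 0) and 0 to 1.18 CPM with atorvastatin (median 0.054, with 8 mice at 0). Both WTD-fed groups were below every chow mouse, with log2 fold changes of -5.74 ± 0.83, or -6.64 ± 0.81 without Gen20, and -6.05 ± 0.85. For atorvastatin as compared to WTD the value was -0.31 ± 0.75, and it turned to 0.58 ± 0.74 without Gen20, so that no direction can be read.

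Sult5a1, a member without a well-known substrate, was near 0 in part of the WTD mice. It had 35.9 to 85.1 CPM on chow (median 54.3), 0 to 7.14 CPM on WTD (median 1.27) and 0 to 10.1 CPM with atorvastatin (median 4.07). Neither WTD-fed group overlapped with chow. Its log2 fold changes were -5.08 ± 0.53 and -3.72 ± 0.50 as compared to chow, and 1.36 ± 0.47 for atorvastatin as compared to WTD, and without Gen20 the values that use WTD mice were -5.45 ± 0.52 and 1.73 ± 0.46.

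The Sult1 members differed less between the groups. Sult1a1, the main phenol sulfotransferase of liver, had 379 to 579 CPM on chow (median 462), 209 to 396 CPM on WTD (median 260) and 227 to 508 CPM with atorvastatin (median 362). All 16 WTD mice were below the chow median, and all but Gen20 were below the chow range. The log2 fold changes of Sult1a1 were -0.82 ± 0.11, 0.41 ± 0.10 and -0.41 ± 0.11, the first 2 being -0.87 and 0.46 without Gen20. Sult1b1, which acts on phenols and thyroid hormone, had 14.8 to 46.7 CPM on chow (median 40.0), 11.2 to 32.6 CPM on WTD (median 15.8) and 10.4 to 28.0 CPM with atorvastatin (median 19.0). All WTD-fed mice, with or without atorvastatin, were below the chow median of Sult1b1, of which 6 of 16 on WTD and 1 of 16 with atorvastatin were below the chow range, and its log2 fold changes were -1.13 ± 0.16, 0.23 ± 0.14 and -0.90 ± 0.16. Sult1d1, which acts on amines such as dopamine, had medians of 155, 119 and 171 CPM with overlapping ranges (103 to 190, 94.8 to 216 and 98.2 to 259), and log2 fold changes of -0.33 ± 0.13, 0.41 ± 0.11 and 0.08 ± 0.13, the first 2 being -0.40 and 0.48 without Gen20. Sult1c2 had medians of 8.71, 9.48 and 12.0 CPM, again with overlapping ranges (5.89 to 10.7, 5.55 to 17.6 and 4.61 to 18.2), and log2 fold changes of 0.20 ± 0.19, 0.32 ± 0.16 and 0.52 ± 0.19.

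Counted by the threshold used for all genes (edgeR adjusted p under 0.01), 7 of the 10 members were lower, 0 higher and 3 not past the threshold for WTD as compared to chow, where 16.0% of the 15574 genes tested were lower and 17.5% higher. For atorvastatin as compared to WTD, 4 members (Sult1a1, Sult2a1, Sult2a2 and Sult2a3) were higher, 0 lower and 6 not past it, as compared to 4.84% higher and 2.26% lower of all genes. This split of all genes depends on scaling, as 68.2% of the genes past the threshold were higher in the main fit and 54.9% after RLE normalization. For atorvastatin as compared to chow, 5 members (Sult1a1, Sult1b1, Sult3a1, Sult3a2 and Sult5a1) were lower, 0 higher and 5 not past it, as compared to 10.7% lower and 14.2% higher. WTD values of 4 members lay entirely below chow, where those of 2.43% of all genes did and 3.40% lay entirely above, and 3 members had atorvastatin values entirely below chow, where 1.50% of all genes did. Since the members were selected with these comparisons known, nothing is read from these shares. Without Gen20, Sult1d1 and Sult2a3 also passed the threshold on WTD, which gave 9 members, and Sult1d1, Sult3a1 and Sult5a1 also passed it for atorvastatin as compared to WTD, which gave 7. Sult2a3 no longer passed it in the latter comparison without the atorvastatin-treated mouse Gen30, which gave 3. Gen20 was the highest WTD mouse in 9 members, so the higher counts without it are no further support. The median log2 fold change of the 10 members was -2.05, 0.89 and -0.76 in the 3 comparisons, as compared to 0.027, 0.002 and 0.042 over all genes tested.

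**Figure D2:**
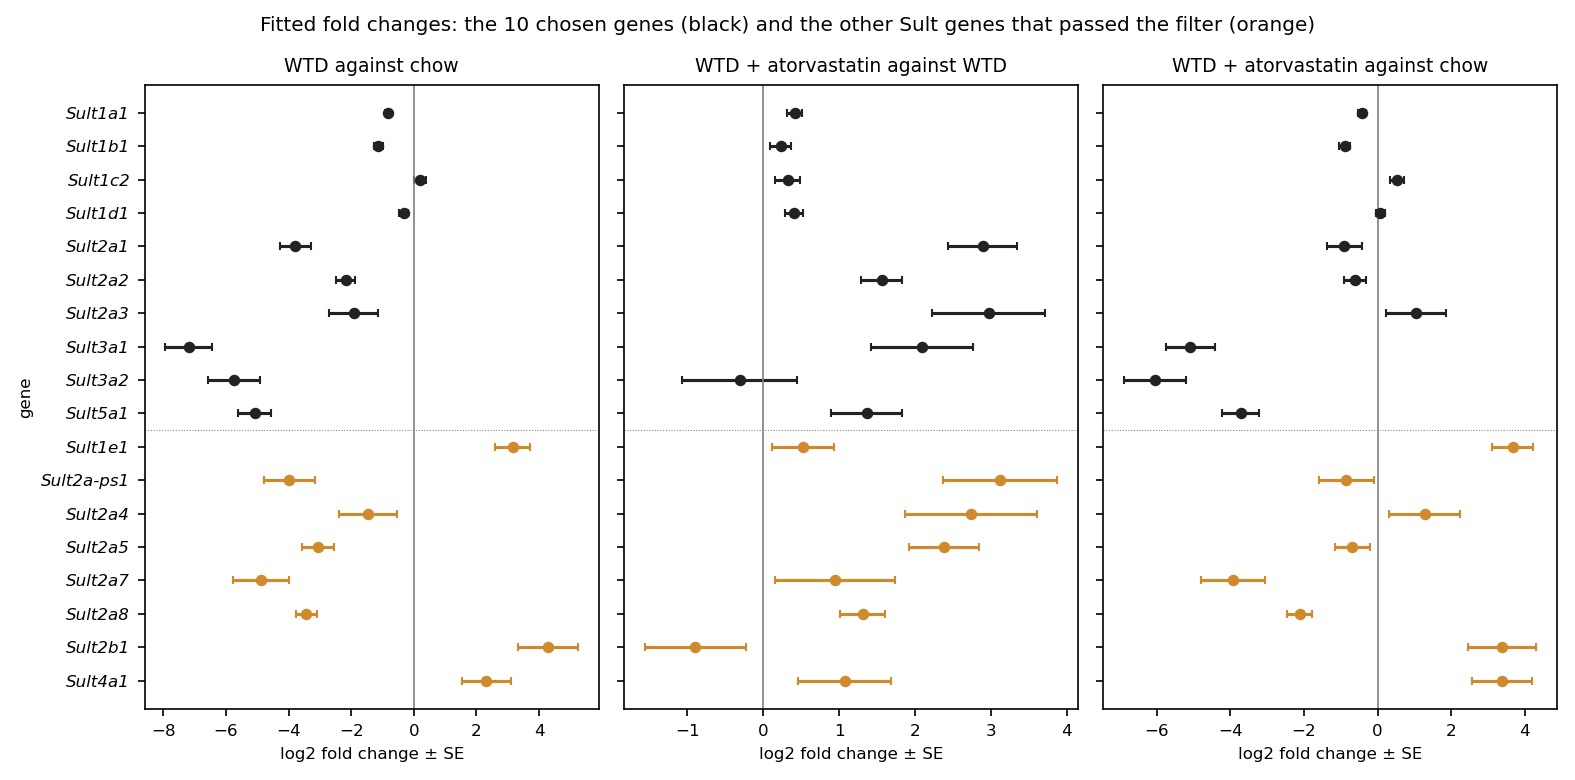
Log2 fold changes (points) with standard errors (bars) of the 10 chosen genes in black and of the 8 other Sult genes that passed the filter in orange, for WTD against chow, atorvastatin against WTD and atorvastatin against chow; the horizontal scales differ between panels. Sult1e1, Sult2b1 and Sult4a1 lie on the opposite side of 0 from Sult2a and Sult3a genes in the left panel.

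The other Sult genes, which are not members, were tested. Of these 8, 4 fell, 2 rose and 2 did not pass the test on WTD, 3 rose and 5 did not pass with atorvastatin as compared to WTD, and 2 fell, 3 rose and 3 did not pass with atorvastatin as compared to chow. Sult2a8, which is abundant in mouse liver, had 582 to 878 CPM on chow (median 704), 31.2 to 323 CPM on WTD (median 45.1) and 42.1 to 297 CPM with atorvastatin (median 152). Both WTD-fed groups were below every chow mouse. Sult2a8 fell 10.8-fold on WTD (log2 fold change -3.43 ± 0.34, edgeR adjusted p = 4.32e-11), rose 2.48-fold with atorvastatin as compared to WTD (1.31 ± 0.30, edgeR adjusted p = 0.00198) and was still 4.35-fold lower than on chow (-2.12 ± 0.33, edgeR adjusted p = 1.8e-06). Without Gen20 its first 2 values were -3.87 and 1.75, and all 3 calls held in each of the 42 fits that left out 1 mouse.

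Sult2a5, the relative of Sult2a1 shown above, fell on WTD (-3.06 ± 0.50, edgeR adjusted p = 2.47e-06) and rose with atorvastatin (2.38 ± 0.46, edgeR adjusted p = 0.00036), with medians of 29.3, 2.6 and 15.0 CPM. Its difference between atorvastatin and chow did not pass (-0.68 ± 0.48, edgeR adjusted p = 0.29). Sult2a7 fell on WTD (-4.87 ± 0.90, edgeR adjusted p = 1.85e-05), did not pass for atorvastatin as compared to WTD (0.94 ± 0.79, edgeR adjusted p = 0.525) and was lower with atorvastatin than on chow (-3.93 ± 0.87, edgeR adjusted p = 0.000363). Its medians were 7.00, 0 and 0.280 CPM, and neither WTD-fed group overlapped with chow. The pseudogene Sult2a-ps1 fell (-3.97 ± 0.81, edgeR adjusted p = 5.75e-05) and rose (3.12 ± 0.75, edgeR adjusted p = 0.00277) like Sult2a5, at medians under 1 CPM. It shares stretches of 50 but not of 150 bases with Sult2a3, Sult2a4 and Sult2a5. Whether reads of these genes were counted for Sult2a-ps1 was not tested. Sult2a4, with medians of 0.0908, 0 and 0.557 CPM, did not pass in any comparison by edgeR, and without Gen20 it passed for atorvastatin as compared to WTD (3.46 ± 0.89, edgeR adjusted p = 0.00398).

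The sulfotransferases of estrogens and of cholesterol moved the other way. Sult1e1, which inactivates estrogens and lies next to Sult1d1, had 0 to 6.08 CPM on chow (median 0.477), 4.80 to 34.9 CPM on WTD (median 14.3) and 1.94 to 46.6 CPM with atorvastatin (median 21.8). In each WTD-fed group, 15 of 16 mice were above the chow range. It rose on WTD (3.15 ± 0.55, edgeR adjusted p = 9.26e-06) and was higher with atorvastatin than on chow (3.67 ± 0.57, edgeR adjusted p = 1.64e-06), while atorvastatin and WTD did not differ past the threshold (0.53 ± 0.41, edgeR adjusted p = 0.484). Sult2b1, which sulfonates cholesterol and pregnenolone, was at 0 in 9 of 10 chow mice and had medians of 0.913 CPM on WTD and 0.528 CPM with atorvastatin. It rose as compared to chow in both groups (4.28 ± 0.96, edgeR adjusted p = 0.000219, and 3.39 ± 0.93, edgeR adjusted p = 0.003), at levels of few counts, and without the chow mouse AZ9, the only one above 0, its fitted values became 7.87 and 6.97, which depend on the prior count once all chow mice are at 0 and are no bound. Sult4a1, a form known mostly from brain, had medians of 0, 0.958 and 2.10 CPM. It was higher with atorvastatin than on chow (3.37 ± 0.81, edgeR adjusted p = 0.000806), and did not pass on WTD (2.31 ± 0.78, edgeR adjusted p = 0.0129), where leaving out the chow mouse AZ5 gave 3.56 and a pass.

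Summed over all Sult genes and scaled by exon length, the level was 1250 to 2230 CPM per kb on chow (median 1450), 275 to 1080 on WTD (median 361) and 341 to 1550 with atorvastatin (median 813). The highest WTD value belonged to Gen20. The Sult2a cluster made up a median of 66.8% of this sum on chow, 31.8% on WTD and 60.4% with atorvastatin, while the share of Sult1a1 was 20.6%, 48.1% and 27.2%. The share of Sult3a1 was 6.14% on chow.

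**Figure D3:**
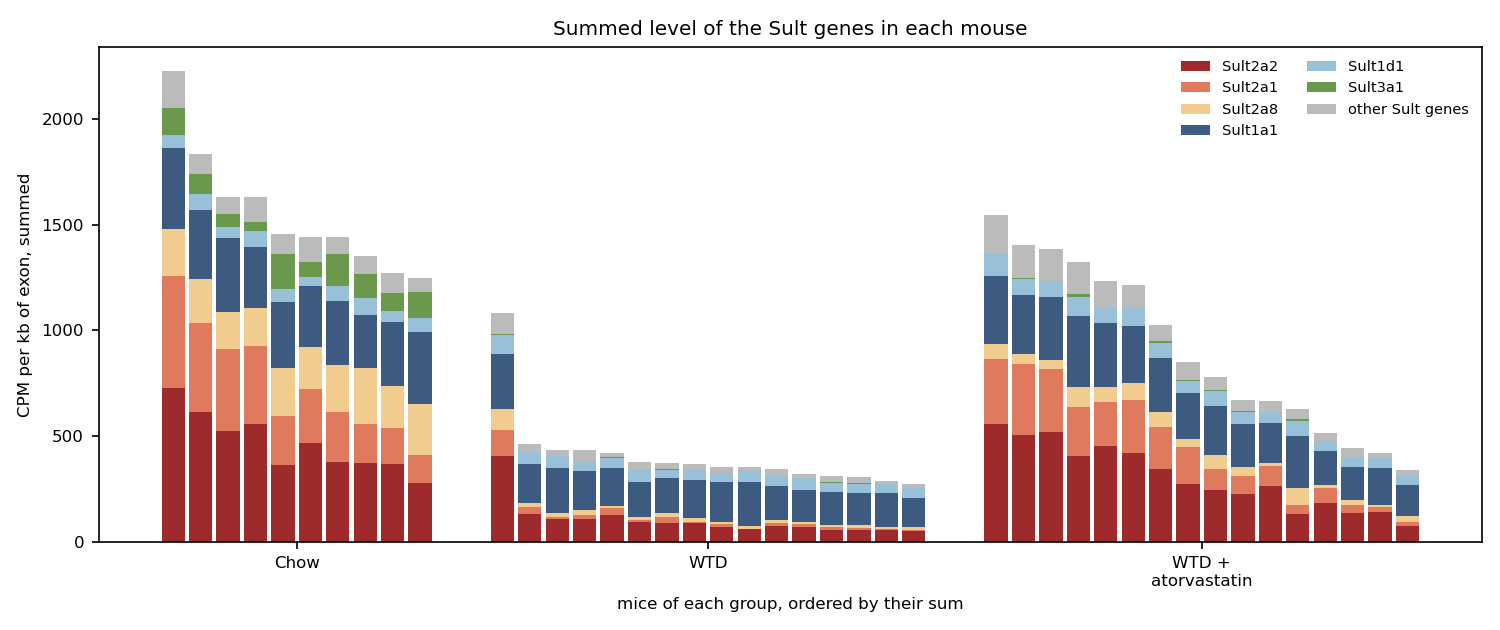
Each bar is 1 mouse and its height the level of all Sult genes in CPM per kb of exon, divided by gene and ordered within each group. Sums run from 1250 to 2230 on chow, from 275 to 1080 on WTD (the first WTD bar is Gen20) and from 341 to 1550 with atorvastatin, and the green part, Sult3a1, can be seen in the chow mice.

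Hepatocyte markers fell on WTD, as most members did, while most macrophage, stellate cell and cholangiocyte markers rose. On WTD, all 8 tested hepatocyte markers fell, with a median log2 fold change of -0.86. A further one, Trf, did not pass the filter and had no count assigned in chow. Whether its reads were left out in counting was not tested, so this is not read as its level. The summed level of the hepatocyte markers was 124300 to 176200 CPM on chow, 61100 to 116000 on WTD and 69550 to 139800 with atorvastatin. Of the 9 macrophage markers, 8 rose on WTD with a median log2 fold change of 3.05 and 6 fell with atorvastatin as compared to WTD, while Clec4f, a marker of resident Kupffer cells named after its value was seen, rose (0.62 ± 0.16, edgeR adjusted p = 0.0047). Their summed level was 380 to 567 CPM on chow, 2307 to 4254 CPM on WTD and 1689 to 3005 CPM with atorvastatin, and no macrophage marker was at 0 in any group. Of the stellate cell and fibroblast markers 6 of 9 rose on WTD, at summed levels of 353 to 649 CPM on chow, 1050 to 2575 CPM on WTD and 929 to 2399 CPM with atorvastatin, and of the cholangiocyte markers 5 of 5 rose, at 77.3 to 156, 182 to 841 and 215 to 597 CPM. Their part in the lower levels of the members was not tested. Within groups, the 10 members were set against the summed hepatocyte and macrophage markers, which gave 60 relations, a comparison added after the values had been seen. The hepatocyte sum is mostly Alb, which had a median of 83830 CPM with atorvastatin, where the sum had a median of 117400 CPM. In atorvastatin-treated mice, 7 of 10 members correlated with the hepatocyte sum at a Benjamini-Hochberg adjusted permutation p under 0.05, with a median r of 0.67 over all 10. The share of all genes that correlate with this sum was not computed, so the count is not read as particular to the members. In WTD-fed mice 2 members passed (Sult1a1 and Sult2a2), at r = 0.794 and 0.841, or 0.549 and 0.508 without the 2 farthest mice, and in chow-fed mice 0 of 10 did by this test. By Pearson's r, the macrophage sum correlated inversely with Sult1d1 (r = -0.75, adjusted permutation p = 0.0119) and Sult1a1 (r = -0.69, adjusted permutation p = 0.0214) in atorvastatin-treated mice. In chow-fed mice Sult1c2 passed by Spearman's rho (-0.86, adjusted permutation p = 0.0253) and not by Pearson's r (-0.77, adjusted permutation p = 0.0573).

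Next, it was asked whether the members varied together among mice on the same diet. The members were chosen with results of these libraries known, so their choice cannot be said to be independent of this variation. All 45 pairs were tested in each of the 3 groups, 135 relations in all, by a two-sided permutation test of Pearson's r of log2 CPM. Of these, 25 passed at an adjusted p under 0.05, all positive: 4 in chow, 7 in WTD and 14 in atorvastatin-treated mice, with a median r over all pairs of 0.014, 0.43 and 0.48. By Spearman's rho these medians were 0.006, 0.24 and 0.39. Without the 9 libraries that missed weakly expressed genes, Gen20 among them, the medians of r were 0.083, 0.22 and 0.45. The WTD median thus depends on few mice. How often pairs of other genes pass was not computed, so these counts are not read as particular to the members. In chow-fed mice the passing pairs were the 3 pairs of Sult2a1, Sult2a2 and Sult2a3 and the pair Sult3a1 and Sult3a2, all of them between members of the same cluster. Sult1b1 and Sult1d1, which also lie in 1 cluster, passed in no group, with r = 0.155 in chow, 0.237 in WTD and 0.389 with atorvastatin.

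Sult2a1 and Sult2a2 correlated with r = 0.967 in chow-fed mice (n = 10, permutation p = 2e-05, adjusted p = 0.00054; Spearman's rho = 0.952, permutation p = 7e-05, adjusted p = 0.000945), and r was 0.928 without the 2 mice farthest from the median. In atorvastatin-treated mice (n = 16) the same pair had r = 0.973 and rho = 0.968, each with the smallest p that 100000 permutations can give, 1e-05 (adjusted p = 0.000337), and r was 0.978 without the 2 farthest mice. In WTD-fed mice (n = 16) r was 0.797 (permutation p = 0.0004, adjusted p = 0.00414), rho was 0.726 (permutation p = 0.00171, adjusted p = 0.0171), and r was 0.686 without the 2 farthest mice and 0.627 without Gen20. Reads that aligned to several places were not assigned, but part of this likeness can come from reads misplaced between the near-identical transcripts, which was not tested. Sult2a1 and Sult2a3, which share no stretch of 150 bases, had r = 0.876 in chow-fed mice (n = 10, permutation p = 0.0011, adjusted p = 0.00742, rho = 0.903 with permutation p = 0.00066) and r = 0.930 in atorvastatin-treated mice (n = 16, permutation p = 1e-05, adjusted p = 0.000337, rho = 0.979 with permutation p = 1e-05), and 0.801 and 0.962 without the 2 farthest mice. In WTD-fed mice (n = 16) their r was 0.869 (permutation p = 0.00042, adjusted p = 0.00414) but 0.469 without the 2 farthest mice, and rho was 0.606 (permutation p = 0.0148), which did not pass (adjusted p = 0.0869).

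In atorvastatin-treated mice the Sult2a genes also varied with Sult1a1 and Sult1d1. Sult1a1 and Sult1d1 had r = 0.952 (n = 16, permutation p = 1e-05, adjusted p = 0.000337, rho = 0.962 with permutation p = 1e-05, and r = 0.928 without the 2 farthest mice), as compared to r = -0.24 in chow-fed mice (n = 10, permutation p = 0.497, adjusted p = 0.615, rho = -0.38 with permutation p = 0.278, and r = 0.061 without the 2 farthest mice). The difference between the groups was not tested. Sult2a1 and Sult3a1 did not pass in these mice, with r = 0.347 (n = 16, permutation p = 0.189, adjusted p = 0.345, rho = 0.224 with permutation p = 0.4, and r = 0.129 without the 2 farthest mice). Sult3a1 correlated with Sult5a1 in these mice, at r = 0.744 (n = 16, permutation p = 0.00044, adjusted p = 0.00414, rho = 0.700 with permutation p = 0.00345, and r = 0.684 without the 2 farthest mice). Of the 7 passing pairs in WTD-fed mice, Sult3a1 with Sult3a2 and Sult3a1 with Sult2a1 rest on few mice, since Sult3a1 was at 0 in 8 and Sult3a2 in 11 of 16, and their r went from 0.802 to 0.673 and from 0.659 to 0.447 without Gen20. Of the 7, 3 had r above 0.5 without the 2 farthest mice, and 2 pairs passed in WTD without the libraries that missed weakly expressed genes.

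**Figure D4:**
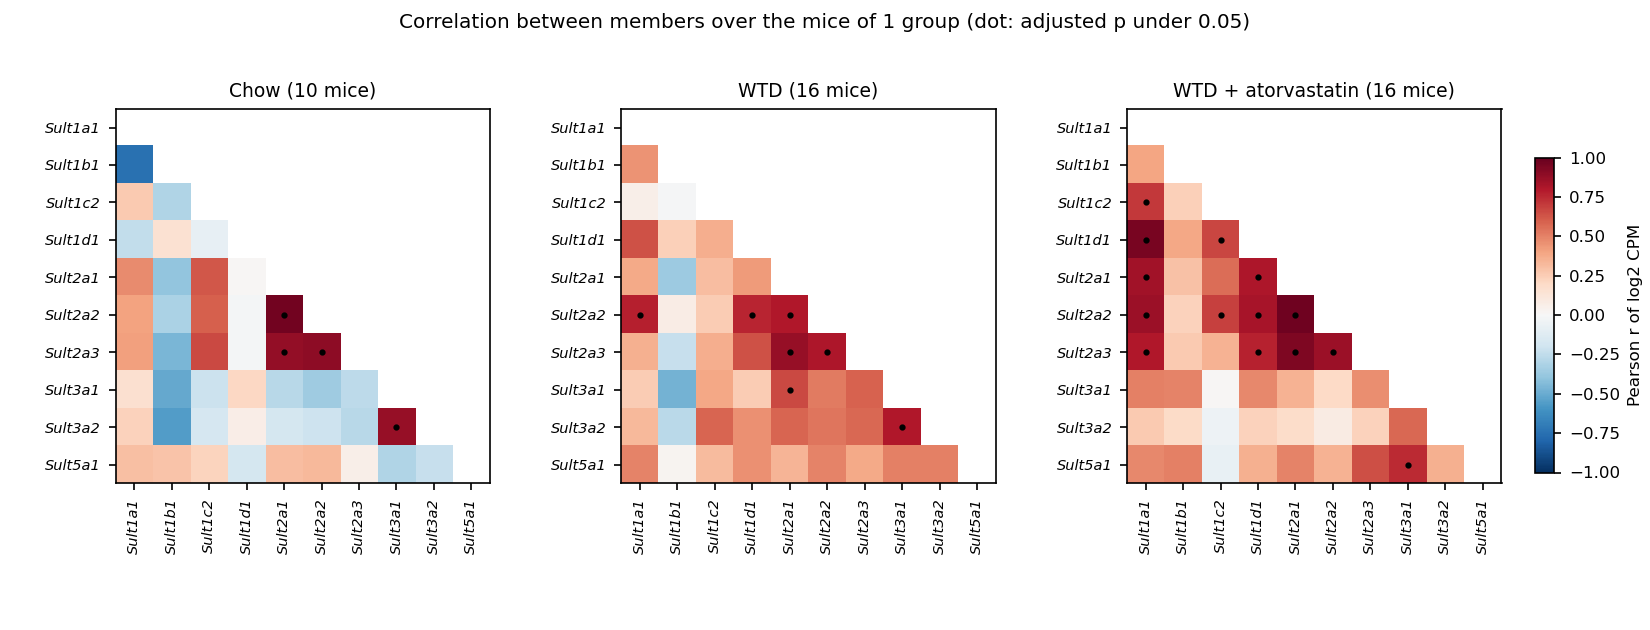
Colour gives Pearson's r of log2 CPM between 2 members over the mice of 1 group, and a dot marks an adjusted p under 0.05. There are 4 dots in chow, 7 in WTD and 14 in atorvastatin-treated mice, where Sult1a1, Sult1d1 and the 3 Sult2a genes form 1 block.

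After centring on group means, the non-member genes most like each member over 42 mice are given as a description, 2 for Sult1b1 and 3 for each other member. They were Sult2a5 (r = 0.854), Pon1 (0.771) and Cyp2b9 (0.765) for Sult2a1, those of Sult2a2 were Pon1 (0.838), Ces1c (0.828) and Otc (0.811), and those of Sult2a3 Pon1 (0.834), Cyp2c38 (0.808) and Cyp3a16 (0.799). For Sult3a1 they were Cyp2c69 (0.744), Cyp2c40 (0.740) and Cyp2d37-ps (0.733), for Sult1a1 Azgp1 (0.908), Apoh (0.90) and Ces1c (0.898), and for Sult1d1 Cyp3a25 (0.852), Nrn1 (0.849) and Ghr (0.845). Sult1b1 was most like Pcyox1 (0.705) and Suds3 (0.701), and Sult1c2 most like Clk4 (0.699), Ptprd (0.654) and H2-Q6 (0.646). Values were lower for Sult3a2, with Sult2a7 (0.596), Dct (0.532) and Fcgr2b (0.514), and those of Sult5a1 were Gm13775 (0.709), Inpp5b (0.703) and Cyp2d37-ps (0.70). These genes share their libraries with the members. Gen20, which stood apart in most members, is among the 42 mice, and values without it were not computed.

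The sulfate that the enzymes use comes largely from cysteine, and all 10 tested genes of that route fell on WTD, where 16.0% of all genes were lower. They were led by Cth, the enzyme that makes cysteine (-1.88 ± 0.13, edgeR adjusted p = 4.51e-17), Suox, the sulfite oxidase (-0.88 ± 0.08, edgeR adjusted p = 4.56e-14) and Tst, a thiosulfate sulfurtransferase (-1.04 ± 0.10, edgeR adjusted p = 1.2e-12). The median log2 fold change of the list was -0.85. This list and those that follow were chosen with earlier results of these data known. With atorvastatin as compared to WTD, 4 of the 10 rose and 6 did not pass, among them Cbs (0.50 ± 0.09, edgeR adjusted p = 9.24e-05) and Suox (0.34 ± 0.07, edgeR adjusted p = 0.000334), while Cth did not pass (0.29 ± 0.11, edgeR adjusted p = 0.0792). As compared to chow, 6 were lower and 4 did not pass.

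Of the 8 tested genes that activate sulfate and handle PAPS, 2 fell and 6 did not pass on WTD. Papss2, the main PAPS synthase of liver, had medians of 337, 176 and 299 CPM, fell on WTD (-0.92 ± 0.15, edgeR adjusted p = 2.28e-06) and rose with atorvastatin (0.71 ± 0.14, edgeR adjusted p = 0.000304). Slc26a1, the sulfate carrier, rose with atorvastatin (0.35 ± 0.09, edgeR adjusted p = 0.00312) without passing on WTD (-0.28 ± 0.10, edgeR adjusted p = 0.0165). Bpnt1, which removes the spent donor, fell on WTD (-0.33 ± 0.09, edgeR adjusted p = 0.00227). As compared to chow, 0 of the 8 passed with atorvastatin by edgeR, DESeq2 or limma-voom, and 2 had an unadjusted edgeR p under 0.05, with Bpnt1 the nearest (-0.26 ± 0.09, edgeR adjusted p = 0.0219).

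Sulfated steroids and bile acids cross the cell membrane through carriers, and of 10 tested genes of these carriers 8 fell and 2 rose on WTD, while 4 rose and 6 did not pass with atorvastatin as compared to WTD. Slc10a1, the main bile acid importer, had medians of 550, 162 and 445 CPM (-1.55 ± 0.22, edgeR adjusted p = 2.02e-07, and 1.04 ± 0.20, edgeR adjusted p = 0.000334). Abcb11, the bile salt export pump, fell (-0.90 ± 0.09, edgeR adjusted p = 1.19e-11) and rose with atorvastatin (0.44 ± 0.08, edgeR adjusted p = 0.000206). Slco1a1, an importer of organic anions, fell from a median of 11.0 CPM to 0.406 CPM on WTD (-5.47 ± 0.80, edgeR adjusted p = 3.03e-07) and did not pass for atorvastatin as compared to WTD (1.09 ± 0.70, edgeR adjusted p = 0.372). The 2 that rose, named after their values were seen, were Abcc4 (1.25 ± 0.31, edgeR adjusted p = 0.00101) and Abcg2 (0.43 ± 0.12, edgeR adjusted p = 0.00324), which export conjugates. Sulfatases, which remove sulfate in lysosomes, moved the other way from the sulfate route: 7 of 11 genes of sulfatases and their activators rose on WTD and 4 did not pass, led by Galns (1.19 ± 0.17, edgeR adjusted p = 7.6e-08), and 0 of the 11 passed with atorvastatin as compared to WTD by edgeR, where 1 passed by DESeq2 and 2 by limma-voom. Of these 11, 2 had an unadjusted edgeR p under 0.05, with Arsa the nearest (-0.66 ± 0.20, edgeR adjusted p = 0.0236).

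**Figure D5:**
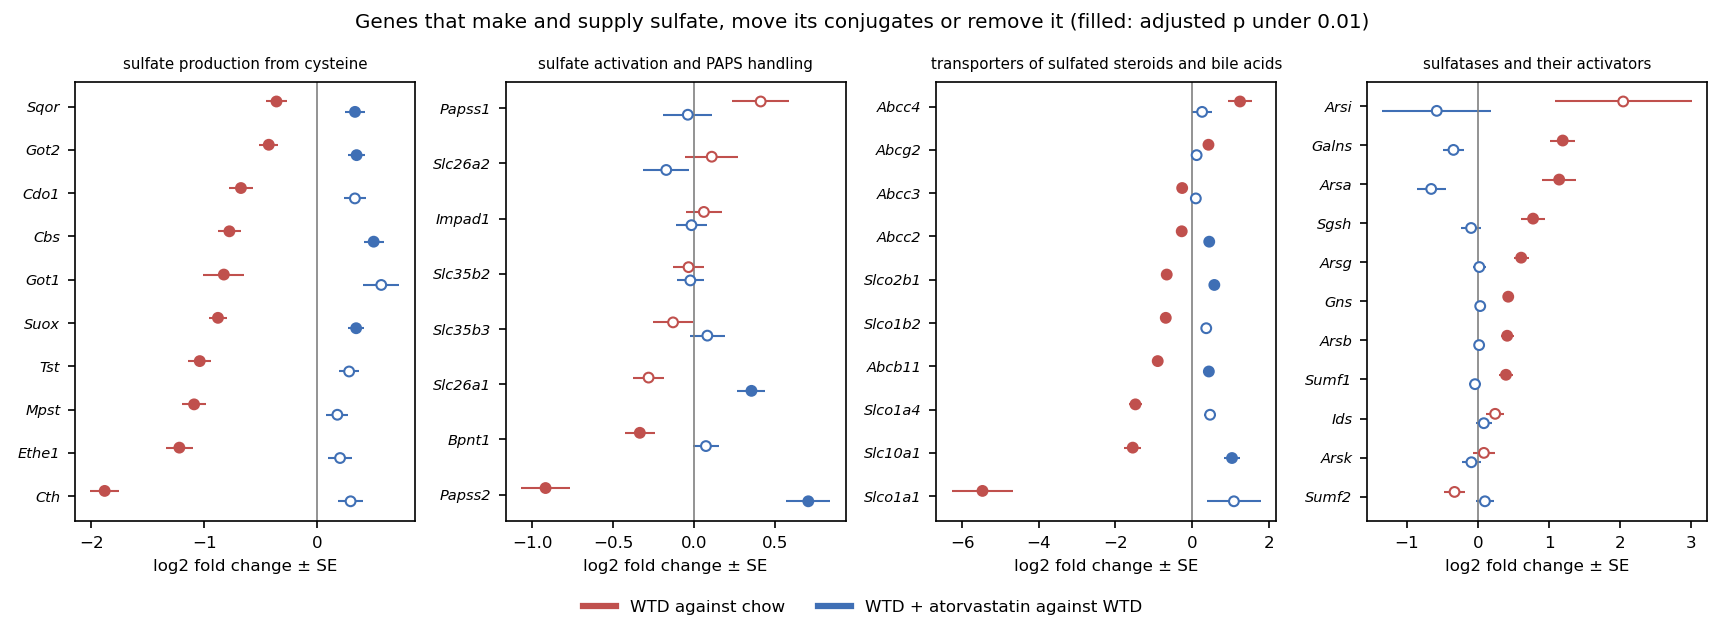
Log2 fold changes with standard errors for 4 gene lists, WTD against chow in red and atorvastatin against WTD in blue, filled where the edgeR adjusted p was under 0.01; the horizontal scales differ between panels. All 10 genes of sulfate production lie left of 0 in red, and 7 genes of sulfatases and their activators are filled to the right of 0.

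Of 21 transcription factors and receptors known to act on sulfotransferase genes, 12 fell, 1 rose and 8 did not pass on WTD. Among the nuclear receptors, Nr1i3 (CAR) had medians of 552, 184 and 262 CPM (-1.46 ± 0.18 on WTD, edgeR adjusted p = 1.32e-08), Nr1h4 (FXR, the bile acid receptor) 218, 114 and 152 CPM (-0.84 ± 0.10, edgeR adjusted p = 3.05e-10) and the estrogen receptor Esr1 48.8, 26.2 and 34.9 CPM (-0.85 ± 0.13, edgeR adjusted p = 1.59e-07). The gene that rose was Nfe2l2, a regulator of antioxidant genes, (0.40 ± 0.08, edgeR adjusted p = 3.82e-05). With atorvastatin as compared to WTD, 1 of the 21 rose, Hnf4a (0.33 ± 0.07, edgeR adjusted p = 0.000639), and 20 did not pass. As compared to chow, 5 were lower with atorvastatin, 1 was higher and 15 did not pass.

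The nearest tested genes outside the family were looked at on either side of each member locus. Rsph4a, which begins 26 kb after Sult3a1, fell on WTD from a median of 3.06 to 0.591 CPM (-2.21 ± 0.61, edgeR adjusted p = 0.00219). Ugt2a3, a glucuronosyltransferase 176 kb before Sult1b1, fell on WTD (-1.02 ± 0.12, edgeR adjusted p = 7.14e-10) and rose with atorvastatin (0.59 ± 0.11, edgeR adjusted p = 0.000126). Lig1, 422 kb before Sult2a2, rose on WTD (0.90 ± 0.19, edgeR adjusted p = 0.000125). The nearest tested genes of Sult1a1 (Nupr1, Slx1b), Sult1c2 (Sgo1 at 140 kb, Pot1b at 1806 kb) and Sult5a1 (Ankrd11, Chmp1a) did not pass in any comparison. Obox8 (208 kb), Nkain2 (876 kb) and Jchain (951 kb), beside the other loci, did not pass either.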

How the data were processed

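Counts per gene in liver RNA of 42 mice were used as deposited. Per the labels and the methods, the authors made strand-specific poly(A) libraries with paired reads of 150 bases, trimmed them with Trimmomatic, aligned them with STAR 2.5 to GRCm38 with GENCODE M19 and counted reads with HTSeq 0.6.1p1. The merged table held the same counts as the 42 single files. Lines that name no gene were left out: read pairs outside genes (2.00 to 2.78%), in several genes (5.43 to 6.57%) or aligned to several places (4.07 to 5.36%). Symbols came from GENCODE M21, which matched 54409 of 54446 ids. The members and gene lists were chosen with earlier results of these data known.

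With edgeR 4.0.16 (R 4.3.3), genes were filtered (filterByExpr, minimum count 10, which left 15574), scaled by TMM and fitted over all 42 mice in 3 groups with the robust quasi-likelihood test. P-values were adjusted over all genes tested (Benjamini-Hochberg) and called under 0.01. Each library came from 1 mouse, and mice were group-housed, with cages not given in the sources used here. CPM use TMM-scaled totals, correlations log2 CPM with a prior count of 2 and 100000 permutations. The fit and the correlation test were tested on simulated data.

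Named were all members, every other Sult gene that passed the filter, the nearest tested protein-coding neighbours and the 3 non-member genes most like each member. From the lists, genes were named among the 3 with the smallest p in a comparison, except where the text says otherwise. Not all such genes are named, so those named do not stand for their list. Lists covered sulfate production, PAPS handling, sulfatases, Golgi sulfotransferases, carriers, regulators and markers of 8 cell types or tissues. Alternatives were DESeq2 1.42.0, limma 3.58.1 (voom with sample weights), RLE and upper-quartile scaling, other filters and thresholds, fits of 2 groups, and fits without single mice or without 9 libraries. A further regulator, a motif and a gene like Sult1b1 are not reported here. Amino acid sequences were not used here.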

Additional observations from a re-analysis of the deposited data

Results flagged for a closer look

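In each of the 18 tested Sult genes, the highest and the lowest of the 10 chow mice were compared with the nearest other mouse by Dixon's criterion for the gap relative to the whole range. For normally distributed values, chance marks about 1 in 20 such groups. That rate does not hold for CPM near 0: with 9 of 10 chow mice at 0 for Sult2b1, any count in the last mouse meets the criterion. Sult2a3 stood out because the mouse AZ2 had 70.0 CPM and the next 17.9 CPM, at a median of 8.27 CPM. Without AZ2 the log2 fold change of Sult2a3 for atorvastatin as compared to chow was 1.84 in place of 1.05. Sult2a7 stood out because AZ1 had 41.2 CPM and the next mouse 19.2 CPM, at a median of 7.00 CPM. Sult2b1 stood out because AZ9 had 0.609 CPM while the other chow mice had 0, and Sult4a1 because AZ5 had 1.62 CPM and the next mouse 0.562 CPM. The libraries of AZ2 and AZ5 also missed the largest shares of weakly expressed genes among the chow mice (57.3% and 43.1%), as compared to 6.11% for AZ1 and 4.47% for AZ9; the part of this in the values was not tested. All 4 such values were the highest of the group.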

How the results depend on the processing

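No paired analysis was possible because the labels give no number that links a mouse of 1 group to a mouse of another. The number of genes past the threshold for atorvastatin as compared to WTD was 1106, and it was 3118 with limma-voom and sample weights, 1664 without the 9 libraries that missed over 20% of weakly expressed genes and 2021 at an adjusted p under 0.05. Of these genes 68.2% were higher in the main fit, 50.9% with DESeq2, 54.9% with RLE, 55.6% with at least 10 counts in every mouse and 52.8% with only the 2 groups fitted. The number of members past it was 7 in place of 4 both without those libraries and at 0.05. With at least 10 counts in every mouse, which left out the 4 members with mice at 0, 4 of the 6 members still tested passed on WTD, where 41.9% of 9973 genes did, and 2 of 6 for atorvastatin as compared to chow, where 33.7% did, in place of 7 and 5 of 10. Leaving out each mouse in turn gave 4952 to 5384 genes on WTD, 913 to 1575 for atorvastatin as compared to WTD and 3651 to 4101 for atorvastatin as compared to chow, with 7 to 9, 3 to 7 and 5 to 6 members. The 25 correlated pairs were 24 with a prior count of 0.5, 26 with RLE, 18 without the 9 libraries and 21 by Spearman's rho, with 1 inverse pair each under RLE and Spearman's rho.

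On WTD as compared to chow, limma-voom gave log2 fold changes of -9.35 for Sult3a1, -6.80 for Sult3a2 and -6.37 for Sult5a1. No member past the threshold changed direction under the alternatives run, and Sult3a2 for atorvastatin as compared to WTD, which was not past it, ranged from -0.34 to 0.64. Among the other Sult genes, Sult2a5 (2.33, adjusted p = 0.0131 by limma-voom) and Sult2a-ps1 (2.48, edgeR adjusted p = 0.0161 without the 9 libraries) no longer passed for atorvastatin as compared to WTD. Sult4a1 on WTD passed with DESeq2, limma-voom and without the 9 libraries, and Sult1e1 and Sult2a4 for atorvastatin as compared to WTD passed with limma-voom. The causes were not tested. Depth limits the genes near 0: with 3 counts as the floor, Sult3a1 and Sult3a2 levels under 0.083 to 0.19 CPM cannot be told from 0.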

Other observations

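The sulfotransferases of the Golgi, which sulfate proteins and glycosaminoglycans and are not among the members, were tested as well. Their list, like the others, was chosen with earlier results of these data known. Of 24 genes, 7 rose, 1 fell and 16 did not pass on WTD, among them Chst11, a chondroitin sulfotransferase, with medians of 0.514 CPM on chow and 6.28 CPM on WTD (3.78 ± 0.45, edgeR adjusted p = 5.26e-10), and Gal3st1, which makes sulfatide (1.76 ± 0.34, edgeR adjusted p = 2.31e-05). With atorvastatin as compared to WTD, 3 heparan sulfate enzymes rose, Hs3st3b1 (0.51 ± 0.08, edgeR adjusted p = 3.21e-05), Hs6st1 (0.45 ± 0.08, edgeR adjusted p = 8.25e-05) and Ndst1 (0.58 ± 0.13, edgeR adjusted p = 0.00106), and 21 did not pass. The gene that fell on WTD, named after its value was seen, was Tpst1, a tyrosine sulfotransferase (-0.44 ± 0.13, edgeR adjusted p = 0.00431).

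Markers of further cell types were counted on WTD as compared to chow. Of the sinusoidal endothelial markers 1 of 5 rose and 2 fell, of the neutrophil markers 2 of 2 tested rose, and of the lymphocyte markers 0 of 7 passed by edgeR, where 1 had an unadjusted p under 0.05 and 1 each passed by DESeq2 and limma-voom. Of the intestine, kidney and pancreas markers 1 of 3 tested fell, and Slc34a1, Cpa1 and Prss2 were at 0 in all mice.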
